A study of Rattus norvegicus with 4 samples.

Results

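The genes described here are 34 listed genes of glycolysis and the cellular response to low oxygen, picked by symbol from the 32753 genes in each of the 4 tables. Of these, 33 were found, and the expression of Egln1 was not analysed here. They fall into 23 genes of glucose uptake and glycolysis and 11 genes of the hypoxia-inducible factor (HIF) pathway. The filter of at least 1 RPKM in 2 or more libraries was passed by 32 members (22 of 23 and 10 of 11), and Eno2 did not pass it. RPKM is a read count scaled to transcript length and to library size, so levels of different genes can be set side by side.

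The libraries were made from rat embryonic stem cells, strain label DASD, that were either wild type (WT) or lacked Kcnh2 on both alleles (Kcnh2-/-), with 2 libraries per genotype at differentiation day 4. Kcnh2 encodes the pore-forming subunit of the ERG voltage-gated potassium channel. In both genotypes the cells were aggregated in hanging drops with CHIR9902, PD0325901 and Y27632, attached to laminin with CHIR9902 and PD0325901, and then moved to a medium called DM. Whether the replicates are separate cultures, clones or lines is not given in the labels, so p-values measure the spread between these samples, which may be technical. In bulk RNA, fewer cells of a type and less RNA per cell cannot be told apart.

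Glycolysis turns glucose into pyruvate in the cytosol. Glucose enters through facilitative transporters, is trapped by hexokinase, committed by phosphofructokinase, and after the aldolase step each triose passes through ATP-yielding reactions. Lactate dehydrogenase then regenerates the NAD+ that the GAPDH step consumes, and monocarboxylate transporters export the lactate. Pluripotent stem cells are known for a high rate of glycolysis even in oxygen. The HIF pathway is the main transcriptional route to more of it: prolyl hydroxylases of the EGLN family mark HIF alpha subunits for destruction when oxygen is present, and in low oxygen the stabilised factor binds hypoxia response elements near glycolytic genes and near others that limit mitochondrial use of pyruvate, recruit vessels or modify collagen.

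Upstream windows show where the core of that element lies in members the results turn on. The windows are the 250 bases before the annotated start in the RefSeq assembly GRCr8, read along the gene's strand. Capitals mark each match to ACGTG or GCGTG on either strand (CACGT or CACGC as the reverse complement). A CACGTG hexamer, the E-box bound by MYC among others, holds ACGTG on both strands and counts as 2 matches. Slc2a1 and Ldha are shown as glycolytic members with non-overlapping RPKM values between genotypes, which neither kept after quantile normalization. Bnip3 and Egln3 are shown as HIF targets whose values split by replicate number. They are examples and not a contrast of the groups. Both replicate 2 libraries were also above both of replicate 1 for 9 of 22 tested glycolytic members and for 29.5% of all genes tested.
Slc2a1: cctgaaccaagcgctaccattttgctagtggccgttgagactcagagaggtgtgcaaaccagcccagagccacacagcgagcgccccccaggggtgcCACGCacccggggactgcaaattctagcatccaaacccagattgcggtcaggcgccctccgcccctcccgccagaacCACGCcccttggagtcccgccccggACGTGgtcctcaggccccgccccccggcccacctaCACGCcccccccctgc
Ldha: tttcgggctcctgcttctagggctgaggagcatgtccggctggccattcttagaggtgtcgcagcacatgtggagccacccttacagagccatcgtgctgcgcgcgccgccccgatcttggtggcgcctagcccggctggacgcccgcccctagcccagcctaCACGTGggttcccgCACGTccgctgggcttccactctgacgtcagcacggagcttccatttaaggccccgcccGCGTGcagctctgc
Bnip3: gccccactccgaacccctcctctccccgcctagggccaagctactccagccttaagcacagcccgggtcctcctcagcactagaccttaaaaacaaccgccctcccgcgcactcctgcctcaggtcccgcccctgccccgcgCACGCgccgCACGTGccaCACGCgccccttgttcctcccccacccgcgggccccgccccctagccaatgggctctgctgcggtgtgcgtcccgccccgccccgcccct
Egln3: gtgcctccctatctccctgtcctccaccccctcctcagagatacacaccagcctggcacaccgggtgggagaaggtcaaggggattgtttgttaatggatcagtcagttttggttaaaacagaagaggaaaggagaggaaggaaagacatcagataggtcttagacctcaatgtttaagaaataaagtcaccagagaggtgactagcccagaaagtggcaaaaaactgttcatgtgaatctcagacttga
The Slc2a1 window is chr5:138002272-138002521 on the plus strand, with 4 matches. The Ldha window is chr1:106507842-106508091 on the plus strand, with 4 matches, 2 of them in a CACGTG hexamer. In Bnip3 the window is chr1:203154963-203155212 on the minus strand, also with 4 matches and a CACGTG hexamer. The Egln3 window, chr6:77411016-77411265 on the minus strand, held none of these letters.

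RefSeq windows were found for 31 of the 34 members (36 windows, since 4 members have several starts), and Slc2a3, Pgk1 and Ndrg1 had none in the table. The window of Egln1 is counted here, although its expression was not analysed. Of these 31 members, 22 held at least 1 core and 9 did not. By window, 63.9% of the members' windows held a core (16 of 25 for glycolysis and 7 of 11 for the HIF pathway), against 40.8% of 21851 windows of protein-coding genes and 36.7% of all 33469 windows. At least 2 matches were present in 38.9% of members' windows and in 18.7% of those of protein-coding genes. These counts describe letters in the windows and not binding, and only 17 of the 36 windows lay wholly before the first annotated base of the gene.

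Kcnh2 itself (chr4:7355573-7387253 in rn6) had 2.61 RPKM in WT replicate 1 and 1.45 RPKM in WT replicate 2, against 0.108 and 0.504 RPKM in Kcnh2-/-. Both knockout values were below both WT values, a log2 difference of -1.20 ± 0.43 (SE), with an adjusted p of 0.980 by limma. The labels do not say which part of the gene was altered.

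Across libraries, summed RPKM of protein-coding genes ranged from 588643 in Kcnh2-/- replicate 1 to 1017670 in WT replicate 1, and 17610 to 17833 genes were above 0. Genes outside the protein-coding set took 98.7% and 99.5% of the total RPKM in the replicate 1 libraries of WT and Kcnh2-/- and 93.9% and 90.3% in the replicate 2 libraries, so the total RPKM of all genes, between 8933410 and 109389000, was far higher in replicate 1 of both genotypes. WT replicate 1 stood apart in its marker sums. Summed pluripotency markers were 595 RPKM there, against 2099 in WT replicate 2 and 1657 and 2854 in Kcnh2-/- replicates 1 and 2, with 12 to 14 of 14 markers above 1 RPKM in each library. Pou5f1, a core pluripotency factor and the largest part of each sum, was at 273, 1203, 1043 and 1679 RPKM in the same order. Other markers did not all follow it: Sox2 was at 33.9 RPKM in WT replicate 1 against 18.1 RPKM in Kcnh2-/- replicate 1. Lin28a was at 196 RPKM in WT replicate 1 against 168 and 101 RPKM in Kcnh2-/-. By sign, 8 of the 13 tested markers had a higher mean in Kcnh2-/- and 5 a lower one. Summed cardiac and smooth muscle markers were 2094 RPKM in WT replicate 1 and 110, 358 and 33.0 RPKM in the others, and Tagln, an actin-binding protein of smooth muscle, accounted for 1329 RPKM of the first sum. The libraries also split by replicate number: over genes under 0.08 RPKM, the most common ratio held 30.4% and 31.9% of genes between same-numbered libraries and 9.86% to 15.2% between others. The labels name no batch, so differences within each number are printed beside the pooled ones.

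No member passed the test between genotypes. With limma on log2(RPKM + 1) over 12355 genes, 0 of 32 members had an adjusted p under 0.05, the smallest being 0.980, and 1 member (Pfkp) had an unadjusted p under 0.05. Over all genes 14, or 0.113%, were called, 4 higher and 10 lower in Kcnh2-/- (1 and 10 after median-of-ratios scaling, 8 and 11 after quantile normalization). The split was 0 and 10 without either WT library, 9 and 3 without Kcnh2-/- replicate 1 and 9 and 7 without Kcnh2-/- replicate 2. With 2 libraries a group, the values below are therefore descriptions of these libraries.

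By sign, 17 of the 22 glycolytic members had a higher mean in Kcnh2-/- and 5 a lower one, or 13 and 9 after quantile normalization, which turned Slc2a1, Aldoa, Gapdh and Slc16a3. Their median log2 difference was 0.36, against 0.01 over all genes tested. It was 0.44 within replicate number 1 and 0.22 within number 2. The value rests on WT replicate 1 and on Kcnh2-/- replicate 2: it was 0.11 without the first and 0.15 without the second, against 0.53 without WT replicate 2 and 0.47 without Kcnh2-/- replicate 1, and after quantile normalization it was 0.07. Of the 22, 13 were higher in Kcnh2-/- within both numbers, 2 were lower within both and 7 had opposite signs. Over all genes tested, 30.8% were higher within both.

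The summed RPKM of the glycolytic members was 10963 in WT replicate 1, 13491 in WT replicate 2, 13721 in Kcnh2-/- replicate 1 and 18281 in Kcnh2-/- replicate 2. These sums were not divided by the summed RPKM of protein-coding genes, which was 1017670, 712156, 588643 and 865713 in the same order. The order of the glycolytic sums below is that of the undivided values. The library with the lowest glycolytic sum was the one with the lowest summed pluripotency markers, and the library with the highest glycolytic sum had the highest. The libraries between them, WT replicate 2 and Kcnh2-/- replicate 1, had nearly equal glycolytic sums (13491 and 13721 RPKM). Their pluripotency sums were 2099 and 1657 RPKM. The part of cell composition in these values was not tested. Quantile normalization lowered the differences of the 9 members above a mean of 500 RPKM by a median of 0.36 on the log2 scale. Median-of-ratios scaling, which applies 1 factor to each library, left the glycolytic median at 0.37 and the same 6 members with non-overlapping higher values in Kcnh2-/-.

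**Figure D1:**
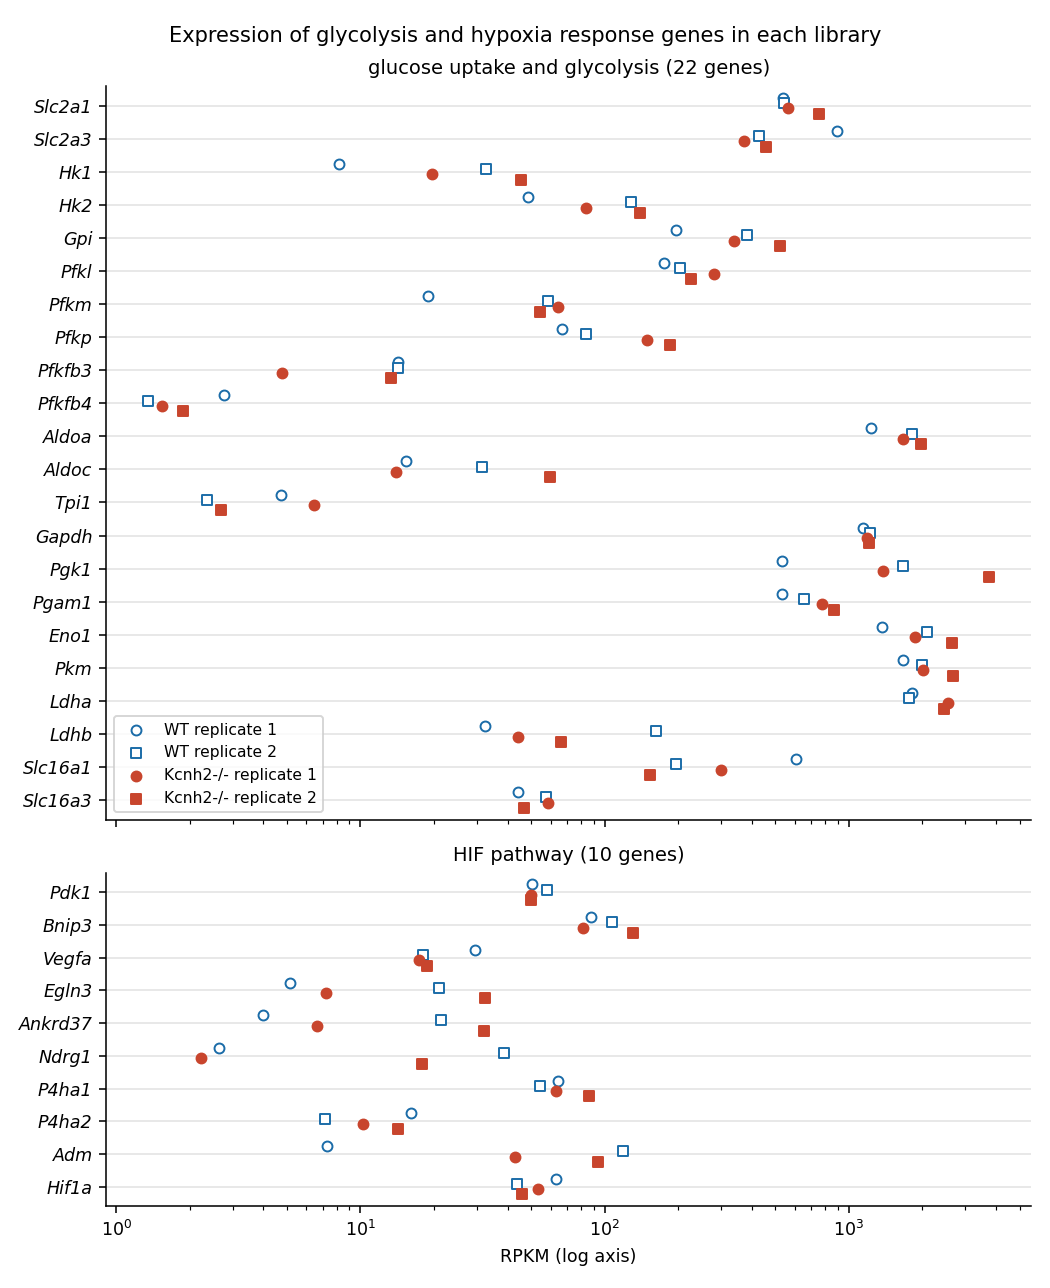
RPKM of each tested member in each library on a log axis, for the 22 glycolytic genes (top) and the 10 HIF pathway genes (bottom); open symbols are WT, filled symbols Kcnh2-/-, circles replicate 1 and squares replicate 2. Filled symbols lie to the right of open ones for Slc2a1, Pfkl, Pfkp, Pgam1, Pkm and Ldha, of which only Pfkp kept this after quantile normalization, and squares lie to the right of circles for Bnip3, Egln3, Ankrd37, Ndrg1 and Adm.

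Both Kcnh2-/- libraries were above both WT libraries for 6 glycolytic members, Slc2a1, Pfkl, Pfkp, Pgam1, Pkm and Ldha. Over all genes tested this held for 16.7%, the share against which 6 of 22 is read. After quantile normalization the list was Pfkp and Pgk1. One member, Pfkfb3, was below in both, a pattern seen for 15.3% of all genes, and after quantile normalization Slc2a3 was below as well.

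Of the glucose transporters, Slc2a1, the basal carrier of most cells, was at 539 and 544 RPKM in WT against 562 and 752 RPKM in Kcnh2-/- (replicates 1 and 2, the order used throughout). Both knockout values exceeded both WT values, the first by a small margin, and the log2 difference was 0.26 ± 0.33 (SE), or -0.13 after quantile normalization. Slc2a3, the high-affinity carrier, was at 896 and 429 RPKM in WT against 373 and 458 RPKM in Kcnh2-/-. Here WT replicate 1 was high and the other 3 were alike, and the sign differed between the numbers (-1.26 and 0.09). The log2 difference was -0.58 ± 0.47 (SE), and after quantile normalization it was -1.06, with both knockout values below both WT values. The locus given for Slc2a3 (chr4:155408232-155631856, rn6) also holds Nanog, Gdf3 and Dppa3, so its reads may have been divided among overlapping genes.

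The hexokinases, which phosphorylate glucose, were lower in replicate 1 of each genotype. Hk2, the isoform of growing cells and muscle, was at 48.3 and 128 RPKM in WT against 84.0 and 139 RPKM in Kcnh2-/-. Hk1 was at 8.16 and 32.7 RPKM in WT against 19.6 and 45.5 RPKM in Kcnh2-/-. For both genes the groups overlapped, and the knockout value was the higher within each number (1.74-fold and 1.08-fold for Hk2, 2.40-fold and 1.39-fold for Hk1). Gpi, which isomerises glucose 6-phosphate, followed the same order, at 195 and 382 RPKM in WT against 339 and 520 RPKM in Kcnh2-/-.

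Pfkp, the platelet-type phosphofructokinase (chr17:68511063-68559471, rn6), had the smallest p of all members. It was at 66.9 and 83.5 RPKM in WT against 149 and 185 RPKM in Kcnh2-/-, so the groups were well separated and the means were 75.2 ± 11.7 and 167 ± 25.3 RPKM (SD, n = 2). The ratio was 2.23-fold within number 1 and 2.22-fold within number 2. Its log2 difference was 1.14 ± 0.28 (SE), with an unadjusted limma p of 0.0110 and an adjusted p of 0.980.

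The other phosphofructokinases were less even. Pfkl, the liver type and the most abundant of the trio, was at 175 and 204 RPKM in WT against 279 and 226 RPKM in Kcnh2-/-. Pfkm, the muscle type, was at 18.9 RPKM in WT replicate 1 and between 54.3 and 64.3 RPKM in the other 3. Pfkfb3 and Pfkfb4 make and break fructose 2,6-bisphosphate, the allosteric activator of phosphofructokinase. Pfkfb3 was at 14.3 and 14.2 RPKM in WT against 4.79 and 13.3 RPKM in Kcnh2-/-, a gap carried by replicate 1 of the knockout alone. Pfkfb4 lay between 1.35 and 2.75 RPKM with overlapping groups.

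After the split into trioses most enzymes stood among the most abundant transcripts. Ranked by mean RPKM among 10851 protein-coding genes tested, Ldha was at 41, Pkm at 44, Eno1 at 51, Pgk1 at 57, Aldoa at 67, Gapdh at 92 and Pgam1 at 142. Gapdh, the dehydrogenase often used as a reference transcript, was the steadiest of them, at 1146 and 1220 RPKM in WT against 1185 and 1213 RPKM in Kcnh2-/-. Its log2 difference was 0.02 ± 0.36 (SE), or -0.34 after quantile normalization. Aldoa, the main aldolase here, was at 1235 and 1808 RPKM in WT against 1668 and 1966 RPKM in Kcnh2-/-, and Eno1, the ubiquitous enolase, was at 1371 and 2078 against 1872 and 2639 RPKM. Both were higher in replicate 2 of each genotype, with overlapping groups.

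Pgam1, phosphoglycerate mutase, was at 532 and 654 RPKM in WT against 776 and 870 RPKM in Kcnh2-/-, with a log2 difference of 0.48 ± 0.33 (SE). Pkm, the pyruvate kinase gene of most tissues other than liver and red cells, was at 1665 and 1988 RPKM in WT against 2001 and 2665 RPKM in Kcnh2-/-. WT replicate 2 and Kcnh2-/- replicate 1 of Pkm were nearly equal. Ldha, the lactate dehydrogenase subunit that favours lactate formation (chr1:102900285-102909707, rn6), was nearly the same in both libraries of a genotype: 1813 and 1758 RPKM in WT and 2542 and 2458 RPKM in Kcnh2-/-. Its means were 1785 ± 39.3 and 2500.0 ± 58.8 RPKM (SD, n = 2), 1.40-fold apart within each number. Yet limma, which shares the spread of similarly abundant genes, gave 0.49 ± 0.43 (SE) and an adjusted p of 0.980. After quantile normalization the groups overlapped for Pgam1, Pkm and Ldha.

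Because a ratio of genes within a library does not depend on a single factor applied to that library, the members were also divided by Gapdh. The Ldha to Gapdh ratio was 1.58 and 1.44 in WT and 2.14 and 2.03 in Kcnh2-/-. For Pfkp the ratio was 0.0584 and 0.0685 in WT and 0.126 and 0.153 in Kcnh2-/-, and for Pgam1 0.464 and 0.536 against 0.655 and 0.717. Of the 31 tested members divided this way, 6 had non-overlapping ratios higher in Kcnh2-/-, with Slc2a1, Pfkl and Pkm as the others, and 2 had lower ones, Pfkfb3 and Pdk1. Gapdh itself ran only from 1146 to 1220 RPKM, so the ratios largely repeat the RPKM values and name the same members. They are no separate check. Over all genes tested, RPKM values were above in both Kcnh2-/- libraries for 16.7% and below in both for 15.3%. The ratios show unequal change between a gene and Gapdh, not which of the pair differed.

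Pgk1, phosphoglycerate kinase (chrX:77263358-77279367, rn6), showed the largest difference among glycolytic members and also a wide spread. It was at 531 and 1660 RPKM in WT against 1379 and 3746 RPKM in Kcnh2-/-, so Kcnh2-/- replicate 1 lay below WT replicate 2. Within numbers the ratio was 2.60-fold and 2.26-fold. The log2 difference was 1.27 ± 0.82 (SE), with an adjusted p of 0.980 by limma. When the fit was limited to protein-coding genes and given the replicate number as a block, Pgk1 was the sole member called, with an adjusted p of 0.0392, where 0.525% of 10851 genes were called higher; over all genes with that block its adjusted p was 0.278.

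Pgk1 is X-linked, and the median difference of X-linked genes was above that of autosomal genes. Among protein-coding genes averaging at least 5 RPKM, 267 were X-linked, and their median log2 ratio less that of 7731 autosomal genes was 0.79 within number 1 and 0.71 within number 2. On the same scale Pgk1 was at 1.36 and 1.10, above 81.6% and 65.9% of the X-linked genes. The 52 such genes between 60 and 80 Mb of the X had medians of 0.80 and 2.11. The part of the X chromosome in the Pgk1 values was not tested. Without Pgk1 the median log2 difference of the remaining 21 tested glycolytic members was 0.34.

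**Figure D2:**
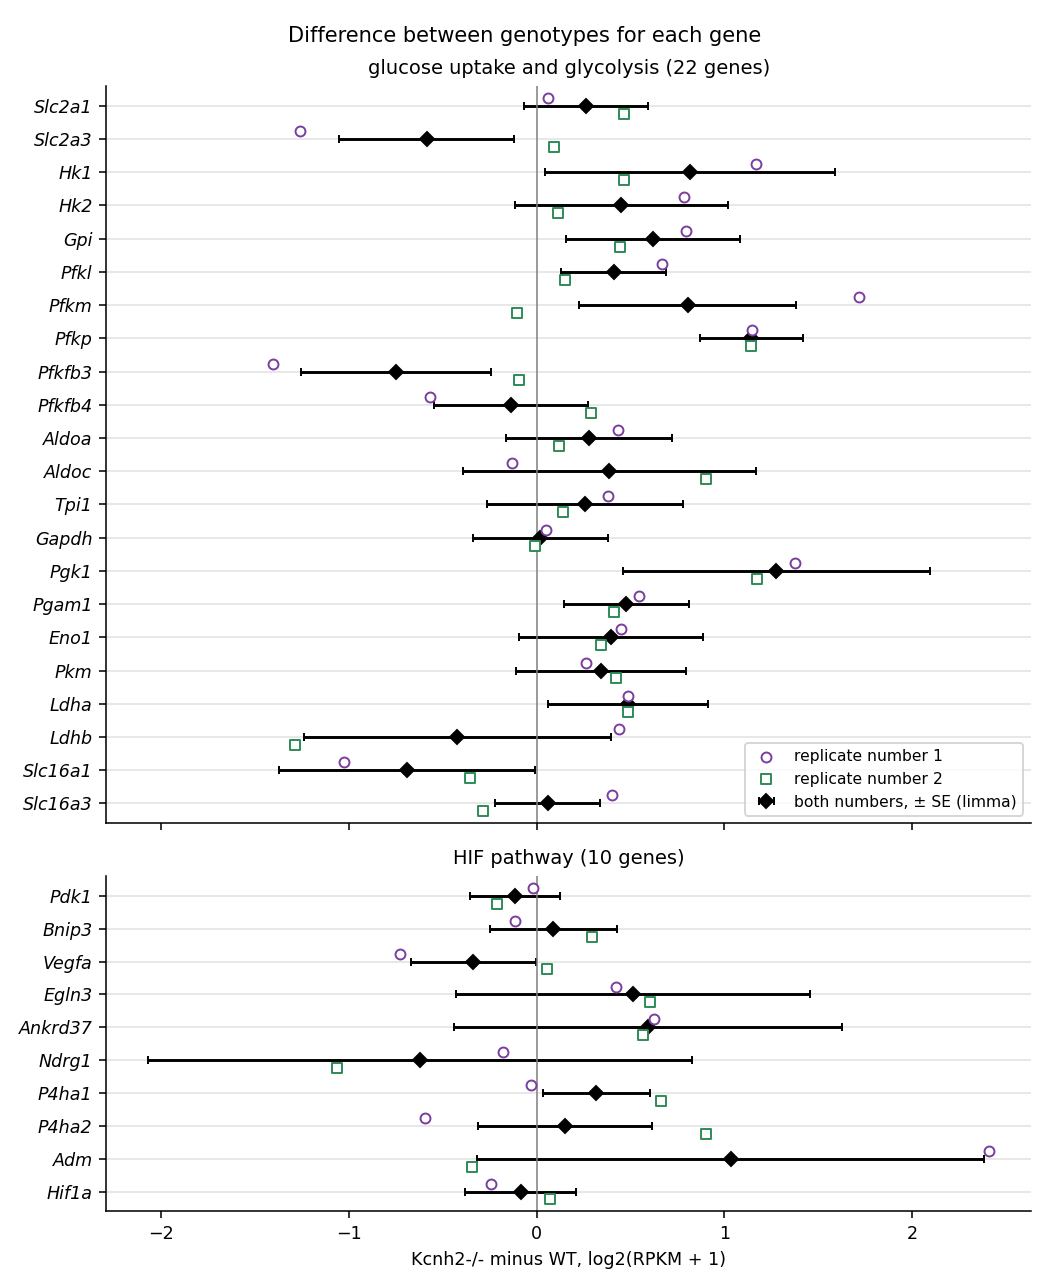
Difference between Kcnh2-/- and WT for each tested member on the log2(RPKM + 1) scale; diamonds with bars are the limma estimate ± SE over 2 libraries per genotype, circles the difference within replicate number 1 and squares within number 2. Pfkp (1.14) and Ldha (0.49) have nearly equal values within both numbers, while Pfkm, Ldhb and Adm change sign between numbers; after quantile normalization Slc2a1, Aldoa, Gapdh, Slc16a3 and Bnip3 change sign.

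The remaining enzymes were low or uneven. Ldhb, the subunit that favours lactate oxidation, was at 32.3 and 163 RPKM in WT against 44.2 and 66.2 RPKM in Kcnh2-/-, with WT replicate 2 high. Aldoc, the brain-type aldolase, was at 15.3 and 31.4 RPKM in WT against 14.0 and 59.4 RPKM in Kcnh2-/-. Eno2, the neuronal enolase, was listed at 0 in replicate 1 of both genotypes and at 0.0643 and 0.0417 RPKM in the others. Tpi1, triose phosphate isomerase, was listed at 2.35 to 6.43 RPKM, far below the enzymes on either side of it. Its locus in the tables also holds Spsb2, and how reads of near-identical copies were assigned is not shown there, so its level is uncertain.

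The lactate exporters differed in pattern. Slc16a1, the broadly expressed monocarboxylate carrier, was at 609 and 196 RPKM in WT against 299 and 153 RPKM in Kcnh2-/-, higher in replicate 1 of each genotype and lower in the knockout within both numbers (0.491-fold and 0.780-fold). Slc16a3, the carrier of strongly glycolytic cells and a HIF target, lay between 44.0 and 58.4 RPKM with overlapping groups.

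Within steps served by several genes, the shares of each gene in the RPKM sum were compared. Slc2a3 made up 62.4% and 44.1% of Slc2a1 plus Slc2a3 in WT and 39.9% and 37.9% in Kcnh2-/-. Pfkp made up 25.6% and 24.2% of the phosphofructokinase sum in WT and 30.3% and 39.8% in Kcnh2-/-, while Pfkl made up 67.2% and 58.9% against 56.7% and 48.6%. Random labels would keep the groups of 1 share apart with a probability of 0.333, and Pfkp and Pfkl are parts of the same sum. For Slc2a3, Pfkp and Pfkl, 3 of 9 shares, the groups did not overlap, a count not above that expected from random labels. The exact permutation test, two-sided, gave p = 0.333 for each, the smallest that 2 against 2 allows, and 1 after Benjamini-Hochberg adjustment over the 9 shares. Hk2 held 75.3% to 85.5% of the hexokinase sum, Ldha 91.5% to 98.3% of the lactate dehydrogenase sum and Aldoc 0.830% to 2.93% of the aldolase sum, with overlapping groups.

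**Figure D3:**
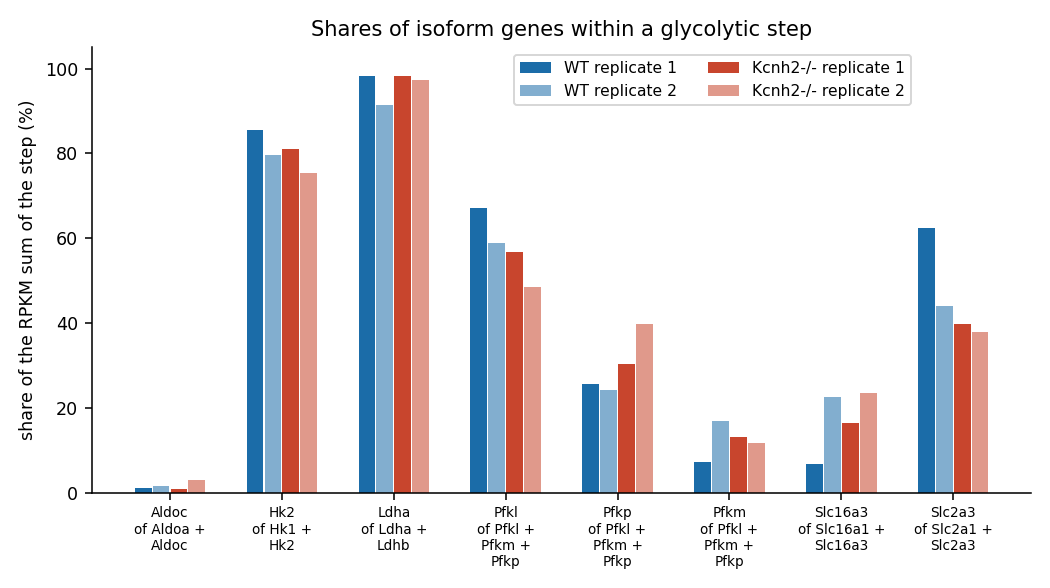
Share of 1 gene in the summed RPKM of the genes serving a glycolytic step, in percent, 1 bar per library (blue WT, red Kcnh2-/-, dark replicate 1, pale replicate 2). The Pfkp share is 24.2% to 25.6% in WT and 30.3% to 39.8% in Kcnh2-/-, and the Slc2a3 and Pfkl shares are lower in both Kcnh2-/- libraries than in both WT libraries.

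Among the 10 tested HIF pathway genes, the libraries of 6 were separated by replicate number and those of 1 by genotype. Over all genes tested, both replicate 2 libraries were above both of replicate 1 for 29.5% and below both for 19.8%. The 6 of 10 is read against the sum of these shares, and a split by number was not particular to HIF pathway genes. By sign, 6 of the 10 HIF pathway genes had a higher and 4 a lower mean in Kcnh2-/- (5 and 5 after quantile normalization, which turned Bnip3). The median log2 difference of the 10 was 0.12. It was -0.07 within number 1, 0.18 within number 2 and 0.02 after quantile normalization. Without WT replicate 1 it was -0.13, without WT replicate 2 it was 0.21, without Kcnh2-/- replicate 1 it was 0.49 and without Kcnh2-/- replicate 2 it was -0.18. No HIF pathway member lay above in both Kcnh2-/- libraries (16.7% of all genes did), and Pdk1 was the one below (15.3% of all genes), so 1 of 10 is not above the share over all genes. Signs were opposite between the numbers for 6 of the 10.

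Between numbers, 5 of the 10 had both libraries of replicate 2 above both of replicate 1, namely Bnip3, Egln3, Ankrd37, Ndrg1 and Adm, under each of the scalings tried. This held for 9 of 22 glycolytic members (5 after quantile normalization) and for 29.5% of all genes tested. The reverse, replicate 2 below in both, held for Hif1a, for 2 glycolytic members (Slc16a1 and Tpi1) and for 19.8% of all genes. The marker sums that differ between libraries, above, also moved with the number: cardiac and smooth muscle markers were lower in replicate 2 of both genotypes. Their part in the HIF target values was not tested.

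Hif1a, the oxygen-regulated alpha subunit, is controlled mainly at the protein level, and its transcript was at 63.0 and 43.7 RPKM in WT against 53.1 and 46.0 RPKM in Kcnh2-/-. The groups overlapped and the log2 difference was -0.09 ± 0.29 (SE). Egln3, a prolyl hydroxylase that is itself induced by HIF, was at 5.13 and 21.0 RPKM in WT against 7.22 and 32.3 RPKM in Kcnh2-/-. Replicate 2 was thus 4.08-fold higher in WT and 4.48-fold higher in Kcnh2-/-, while the genotypes differed by 1.41-fold and 1.54-fold within numbers. Ankrd37, an ankyrin repeat protein and HIF target, was at 3.97 and 21.3 RPKM in WT against 6.66 and 31.9 RPKM in Kcnh2-/-, nearly the same pattern.

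Ndrg1, a stress-responsive gene linked to differentiation, was at 2.64 and 38.6 RPKM in WT against 2.22 and 17.9 RPKM in Kcnh2-/-, the widest ratio between the Kcnh2-/- replicates of any member tested (8.07-fold). Adm, which encodes the vasodilator peptide adrenomedullin, was at 7.30 and 119 RPKM in WT against 43.1 and 93.7 RPKM in Kcnh2-/-. Its low value was in WT replicate 1, and the knockout value was 5.90-fold the WT value in number 1 and 0.787-fold in number 2. Bnip3, a mitophagy receptor, varied less, at 88.1 and 107 RPKM in WT against 81.2 and 131 RPKM in Kcnh2-/-.

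Pdk1, the kinase that shuts pyruvate dehydrogenase, was at 50.5 and 57.8 RPKM in WT against 49.8 RPKM in both Kcnh2-/- libraries. The gap to the lower WT value was smaller than the gap between the WT values, and the log2 difference was -0.11 ± 0.24 (SE). Vegfa, the endothelial growth factor, was at 29.5 RPKM in WT replicate 1 and between 17.4 and 18.8 RPKM in the other 3. P4ha1 and P4ha2, the catalytic subunits of collagen prolyl hydroxylase, lay between 54.2 and 86.5 RPKM and between 7.14 and 16.0 RPKM with overlapping groups, and the locus of P4ha1 is shared with AABR07044973.1.

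**Figure D4:**
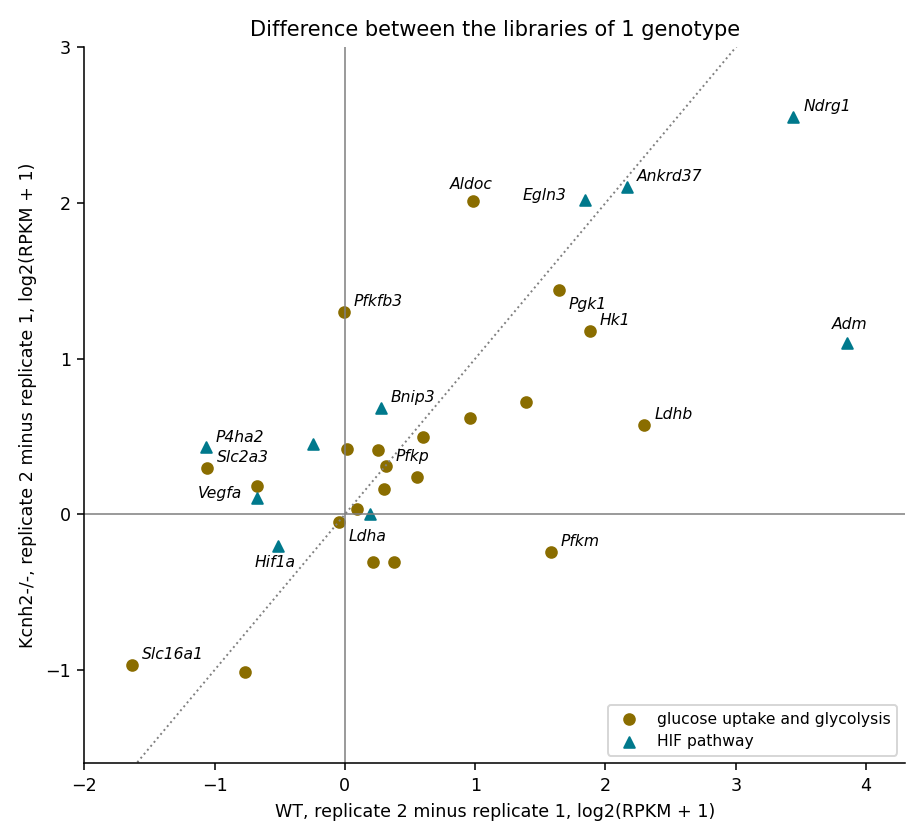
Difference between replicate 2 and replicate 1 in WT (horizontal axis) and in Kcnh2-/- (vertical axis), log2(RPKM + 1), for the 32 tested members; the dotted line marks equal differences and only some points are named. The HIF targets Egln3, Ankrd37, Ndrg1 and Adm and the glycolytic Hk1 and Pgk1 have both differences above 1, and Ldha and Pfkp lie near the origin.

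Companion lists of the same pathways were read in the same fit, and limma called 0 of their genes, with 1 (Stc2) at an unadjusted p under 0.05. Of 13 tested genes for other isoforms of the glycolytic steps, 8 were higher and 5 lower by sign, with a median of 0.03, and after quantile normalization 5 were higher and 8 lower. Bsg, the chaperone of lactate carriers, was at 1082 and 893 RPKM in WT against 946 and 1062 RPKM in Kcnh2-/-. Galk1, which feeds galactose into the pathway, was at 136 and 329 against 290 and 568 RPKM. The side branches into pentose phosphates and glycogen had 14 of 19 higher by sign and a median of 0.12 (12 of 19 after quantile normalization). Pgm1, which links glycogen to glucose 6-phosphate, was at 27.4 and 51.5 RPKM in WT against 51.0 and 95.4 RPKM in Kcnh2-/-.

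Genes of pyruvate entry into mitochondria were higher by sign for 8 of 10 (7 of 10 after quantile normalization), with a median of 0.21. The median was 0.008 within number 1 and 0.38 within number 2, and 5 of the 10 had opposite signs between the numbers. Pdk3, an X-linked sister of Pdk1, was at 29.2 and 17.7 RPKM in WT against 35.8 and 56.7 RPKM in Kcnh2-/-. Its locus (chrX:62836130-62903554, rn6) lies within the stretch of the X between 60 and 80 Mb described above. All 4 tested gluconeogenic genes were lower by sign, with a median of -0.28, among them Pck2, the mitochondrial carboxykinase, at 20.6 and 4.09 against 5.72 and 2.04 RPKM. Among 13 MYC family and metabolic regulators the median was -0.36, with 5 higher and 8 lower by sign (4 and 9 after quantile normalization). Mycl was at 11.1 and 7.26 RPKM in WT against 5.26 and 2.94 RPKM in Kcnh2-/-.

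Among 14 rows for HIF subunits and oxygen sensing, 8 were higher and 6 lower by sign with a median of 0.11. Hif1an, which hydroxylates the transactivation domain of HIF, was at 7.83 and 12.2 RPKM in WT against 7.26 and 4.91 RPKM in Kcnh2-/-. Of 26 other HIF targets, 14 were higher and 12 lower by sign, with a median of 0.05, close to that of all genes. Stc2, which encodes stanniocalcin-2, had the smallest p of them, at 3.04 and 1.65 RPKM in WT against 7.89 and 5.24 RPKM in Kcnh2-/-, with an adjusted limma p of 0.980. Hmox1, heme oxygenase, was the most abundant, at 69.0 and 188 RPKM in WT against 201 and 291 RPKM in Kcnh2-/-. Cxcr4, a chemokine receptor that is both a HIF target and a marker of mesoderm and endoderm, was at 58.1 and 10.0 RPKM in WT against 6.71 and 0.726 RPKM in Kcnh2-/-.

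The marker lists give the setting for these values. Summed mesoderm and endoderm markers were 224 and 73.3 RPKM in WT and 67.0 and 14.1 RPKM in Kcnh2-/-, with 9 of 10 tested genes lower by sign in Kcnh2-/- within both numbers. Summed trophoblast markers, largely Krt8 and Krt18, were 1913 and 438 RPKM in WT and 829 and 334 RPKM in Kcnh2-/-, and Tpbpa was at 0 in all libraries. The differences in this sum followed Krt8, at 1567 and 175 RPKM in WT against 531 and 53.1 RPKM in Kcnh2-/-. Krt18 lay between 230 and 314 RPKM. Of the 4 tested trophoblast markers, 1 was lower in Kcnh2-/- within both numbers and 3 had opposite signs. Feeder or fibroblast markers summed to 33.1 to 80.7 RPKM, with Fbln1 the highest of them in each library. Neural markers summed to 14.2 to 53.7 RPKM, and blood and endothelium markers to 1.92 to 17.0 RPKM. The pluripotency list had 8 of 13 tested genes higher and 5 lower by sign, with median log2 differences of 1.47 within number 1 and 0.03 within number 2.

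**Figure D5:**
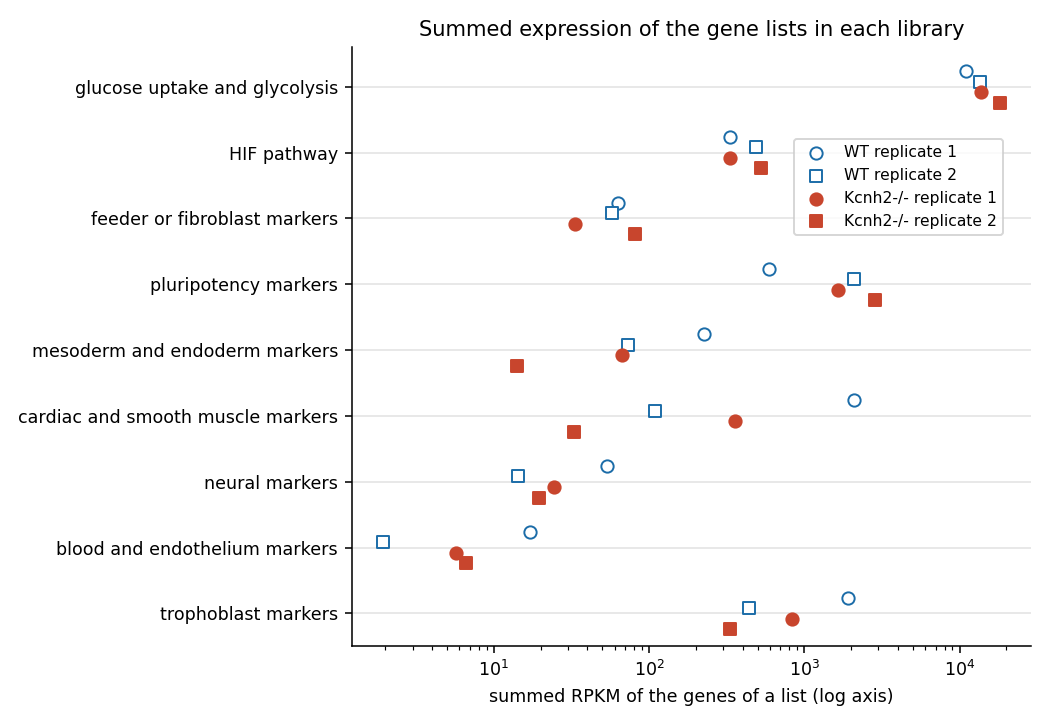
Summed RPKM of the 2 member groups and of 7 marker lists in each library, on a log axis (open WT, filled Kcnh2-/-, circles replicate 1, squares replicate 2). The glycolytic sum runs from 10963 to 18281 RPKM, a far narrower range than the cardiac and smooth muscle sum (33.0 to 2094 RPKM), and the HIF pathway sum is higher in both replicate 2 libraries.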

How the data were processed

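Total RNA depleted of ribosomal RNA was made into strand-marking libraries and read as 100-base pairs, per the labels' protocols. The authors deposited 1 table of RPKM values for each library, made with TopHat2 2.0.13 and Cufflinks 2.2.1 on rn6, per the submitters' processing notes; which annotation they used is not stated in those sources. How these tools divided reads between overlapping genes and near-identical copies is not shown in the tables. Absolute depth is unknown, since whole reads could not be recovered (a common ratio of low values held for at most 31.9% of genes), so no counting interval is given.

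Members were matched by exact symbol. The members and companion lists were chosen with earlier results of these data known. All members found are described, and from each companion list at most the 3 genes of smallest p and 2 of highest mean. Other genes, Sox2 among them, were named only where a statement turned on them. On log2(RPKM + 1), two-sided moderated tests were run with limma 3.58.1 (R 4.3.3; eBayes, mean-variance trend) for genes reaching 1 RPKM in at least 2 libraries, and calls needed a Benjamini-Hochberg adjusted p under 0.05. Fold changes on this scale understate changes of low genes; ratios given as "-fold" are of RPKM. Protein-coding genes were picked through a RefSeq table (GRCr8, names and biotypes only), which matched 19341 of 32753 symbols. Alternatives covered the pseudocount, filter, scaling, variance model, threshold, a replicate block, protein-coding genes alone and each library left out; quantile normalization of protein-coding genes alone was added after seeing the data. The fit was tested on simulated data. Plots were drawn with matplotlib 3.10.9 under Python 3.11.15.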

Additional observations from a re-analysis of the deposited data

How the results depend on the processing

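Over all alternatives tried, the 32 members gave 510 values, of which 473 kept direction and side of the threshold, 36 reversed in sign and 1 (Pgk1) passed the threshold. Settings that changed only the filter, the variance model, the replicate block, the threshold or the gene set could not change a member's log2 difference. Values from those settings kept their direction by construction, so 473 of 510 overstates how steady the signs were. The replicate numbers are shared between genotypes, but the labels give them no meaning and there are 2 pairs: the replicate 2 minus 1 differences of the genotypes correlated across genes with Pearson r of 0.38 (12355 genes, which are not independent replicates) and 0.58 over protein-coding genes. With the replicate block 28 genes were called, against 14 without it, and no member; on protein-coding genes alone 3 genes were called, and with the block 82 genes and 1 member. Calls over all genes were also 3 with a pseudocount of 5, 1 with no filter, 3 with no mean-variance trend and 3 after quantile normalization of protein-coding genes alone. The glycolytic median was 0.0679 after quantile normalization and 0.104 when that was done on protein-coding genes alone (an alternative chosen after seeing the data). In these 2 settings, in this order, signs turned for Slc2a1 (-0.13 and -0.067), Aldoa (-0.066 and -0.062), Gapdh (-0.34 and -0.30), Slc16a3 (-0.057 and -0.051) and Bnip3 (-0.12 and -0.11). Leaving out each library in turn turned the sign of 17 members, 13 of them without WT replicate 1. The log2 differences then ran from -0.12 to 1.76 for Hk1, -0.24 to 1.15 for Hk2, -0.47 to 0.20 for Pfkfb4, -0.62 to 1.39 for Aldoc, -0.25 to 0.76 for Tpi1, -0.025 to 0.065 for Gapdh, -1.57 to 0.73 for Ldhb, -1.51 to 0.13 for Slc16a1, -0.13 to 0.25 for Slc16a3, -0.25 to 0.43 for Bnip3, -0.68 to 0.0019 for Vegfa, -0.50 to 1.52 for Egln3, -0.49 to 1.68 for Ankrd37, -2.34 to 1.10 for Ndrg1, -0.38 to 0.69 for P4ha2, -0.89 to 2.96 for Adm and -0.34 to 0.17 for Hif1a. The other 15 kept their sign, Pfkp and Ldha among them; a library left alone in its group is assumed to vary like the others. The 2 libraries a group and an unknown depth limit all values.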
